A study of Mus musculus with 24 samples.

Results

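Txnip and 9 genes that act with it in glucose uptake were followed across optical exercise of cultured mouse muscle. The 10 members, Txnip, Arrdc4, Slc2a1, Slc2a3, Slc2a4, Hk1, Hk2, Tbc1d1, Tbc1d4, and Mlxip, were found by gene symbol, each once, among 56941 genes in the tables, and 10 of 10 passed the filter on low counts that kept 13318 genes. Txnip was chosen by its measured difference between 10 Hz and 1 Hz, and the others by their role, so that difference is described here and not tested, for any member. RNA sequencing (RNA-seq) had been done on sheets of C2C12 muscle, a myoblast line that fuses into fibers in culture, grown on fibrin hydrogel for about 2 weeks. The cells of every condition, control included, were of the genotype ChR2::tdTomato, in which blue light opens a channelrhodopsin and triggers contraction. All tissues were differentiated in high glucose medium with horse serum and IGF-1, and light was given for 30 min daily at 1 Hz, 4 Hz, or 10 Hz, with an unstimulated control. Each condition had 6 libraries, labelled as replicates and described by the study as biological replicates, and the unstimulated tissues also twitched on their own. The sources used here do not say whether the line was 1 clone.

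TXNIP is an alpha-arrestin that binds thioredoxin and lowers glucose uptake by drawing glucose transporters off the cell surface, and ARRDC4 is a related alpha-arrestin. Both genes are switched on by MondoA, the product of Mlxip, with its partner MLX when hexose phosphates build up, so Txnip mRNA is commonly read as a gauge of sugar load. GLUT1, GLUT3, and GLUT4 (Slc2a1, Slc2a3, and Slc2a4) carry glucose into the cell, hexokinases (Hk1 and Hk2) trap it by phosphorylation, and TBC1D1 and TBC1D4 hold GLUT4 vesicles inside the fiber until insulin or contraction releases them.

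Totals per library ran from 4.09 to 15.2 M (mega) counts, with a median of 7.48 M. The 8 markers of differentiated muscle were present in every condition, whereas all 5 adipocyte and all 3 endothelial markers stayed below 1 TPM (a length-scaled level) on average. Of 3 leukocyte markers, Cd68 was present and Ptprc and Adgre1 were at or near 0. The summed muscle markers ran from 6595 to 7805 TPM in control, between 7672 and 10969 TPM at 1 Hz, between 7575 and 12104 TPM at 4 Hz, and between 5460 and 7656 TPM at 10 Hz. Not every marker moved with the sum. Acta1 averaged 5384 TPM at 1 Hz and 3292 TPM in control, whereas Mb averaged 1922 and 2149 TPM. The 6 summed markers of proliferating or reserve myoblasts ran from 39.8 to 62.2 TPM in control and from 37.7 to 49.1 TPM at 1 Hz. At 4 Hz they ran from 26.6 to 42.7 TPM and at 10 Hz from 43.1 to 51.8 TPM. This sum rests largely on Cdk1, which averaged 28.6 TPM in control, 20.2 at 1 Hz, and 17.6 at 4 Hz, and on Myf5. Top2a went the other way (3.19, 4.29, and 3.80 TPM). So did Pax7 and Mki67, which averaged below 1 TPM in every condition. The part of both marker lists in the results was not tested. The summed counts of 31 small RNAs that carry no poly(A) tail ran from 96.5 to 167 per M (mega) of the library total in control, between 14.6 and 69.6 at 1 Hz, between 18.4 and 50.0 at 4 Hz, and between 37.1 and 272 at 10 Hz. Some low-input samples were ribodepleted in place of poly(A) selection, and the labels do not say which. The small RNA share of control did not overlap that of 1 Hz or 4 Hz, so the effect of stimulation at these frequencies cannot be told apart from it.

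The promoters of Txnip and Arrdc4 are shown because both genes answer to MondoA, which binds paired E-box-like sites. Txnip lies on chromosome 3 at 96465267 to 96469201, plus strand, with 8 exons in its canonical transcript, and Arrdc4 on chromosome 7 at 68386742 to 68398999, minus strand, also with 8 exons (GRCm39, GENCODE M39). The 250 bases before each canonical start (chr3:96465017-96465266 and chr7:68399000-68399249, read on the strand of the gene) are printed below, with matches of CACGTG, of CCAAT, and of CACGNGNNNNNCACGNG on either strand in capitals.
Txnip: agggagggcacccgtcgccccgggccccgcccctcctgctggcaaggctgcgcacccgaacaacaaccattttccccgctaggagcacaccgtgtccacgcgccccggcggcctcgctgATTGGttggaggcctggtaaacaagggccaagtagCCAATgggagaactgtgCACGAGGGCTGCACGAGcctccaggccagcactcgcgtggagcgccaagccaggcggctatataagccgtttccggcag
Arrdc4: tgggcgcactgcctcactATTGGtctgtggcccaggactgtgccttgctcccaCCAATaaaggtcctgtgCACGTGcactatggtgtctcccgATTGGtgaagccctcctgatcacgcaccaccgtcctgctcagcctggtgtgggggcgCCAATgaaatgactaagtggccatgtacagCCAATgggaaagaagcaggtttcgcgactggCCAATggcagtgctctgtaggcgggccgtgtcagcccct
The Txnip window held 1 pair of CACGNG boxes spaced by 5 bases, starting 79 bases before the start, and 2 CCAAT boxes, 1 on each strand. The pair was spelled out after the Txnip window was read, so its presence there is no finding, and it stood in 0.0506% of 21757 protein-coding promoters (11 of them). The Arrdc4 window held 1 CACGTG, starting 180 bases before the start, and 6 CCAAT boxes. CACGTG was present in 6.26% of all promoters and in 2 of 10 members (Arrdc4 and Tbc1d1), and CCAAT was present in 36.5% and in 6 of 10 members. CACGTG is its own reverse complement and would also count as a CACGNG box, and no 2 matches overlap in these windows. In a second promoter set (RefSeq), Tbc1d1 had 2 windows, and 0 of them held 100 bases of the window read here. Slc2a3 and Slc2a4 had no window in that set, so the starts used for these 3 members were not checked by it. A match describes these letters and is not evidence of binding.

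Txnip was low at 1 Hz, intermediate at 4 Hz, and close to control at 10 Hz. In CPM (counts per M, on TMM-scaled library sizes), the control libraries held 146 at the lowest, 160 at the median, and 281 at the highest. The 1 Hz libraries held 43.4, 57.1, and 71.9 CPM in the same order, the 4 Hz libraries 93.5, 98.6, and 144, and the 10 Hz libraries 127, 187, and 242. Every 1 Hz library was below every library of the other conditions, and every 4 Hz library was below every control library, although the nearest of them were 144 and 146 CPM. The 10 Hz libraries fell into an upper group, replicates 1 to 3 at 235, 242, and 226 CPM, and a lower group, replicates 4 to 6 at 148, 127, and 149 CPM. The small RNA shares of these libraries were 176, 272, and 110 per M in replicates 1 to 3 and 97.7, 65.4, and 37.1 in replicates 4 to 6. In control, replicate 2 had the highest Txnip (281 CPM) and the lowest share (96.5). Control replicate 6 had the lowest Txnip (146 CPM) and the highest share (167). At 1 Hz, replicate 1 had the highest of both (71.9 CPM and 69.6). At 4 Hz, replicate 3 had the highest share (50.0) and 94.3 CPM. How Txnip ran with the share within conditions was not tested.

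**Figure D1:**
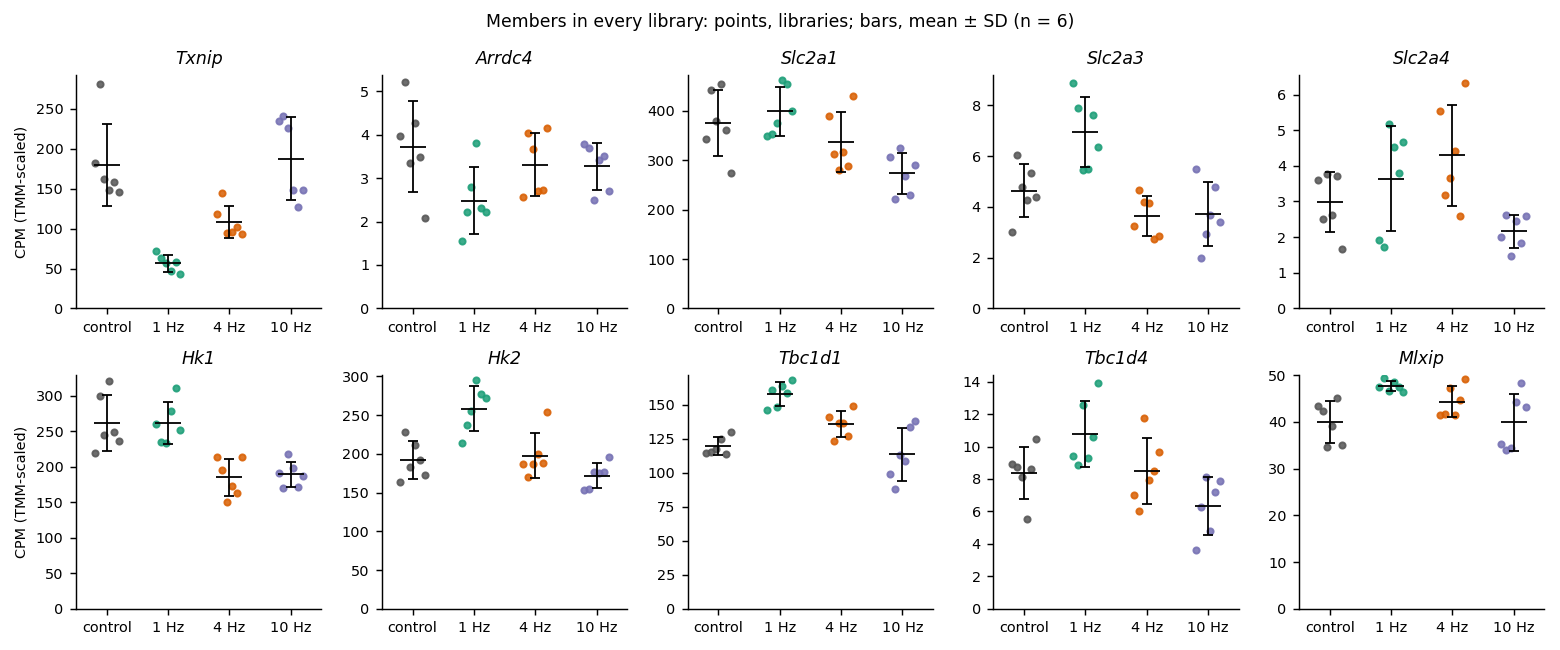
Each panel plots 1 member gene in TMM-scaled CPM (y axis, from 0) against condition (x axis), with a point per library and the mean ± SD of 6 libraries. Txnip sits at 43.4 to 71.9 CPM at 1 Hz, below all other libraries. Slc2a1, Slc2a3, Hk2, Tbc1d1, Tbc1d4, and Mlxip have their highest mean at 1 Hz.

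At 4 Hz, the one contrast with neither the 1 Hz nor the 10 Hz libraries, Txnip was downregulated against control. Its mean was 108 ± 20.0 CPM at 4 Hz and 180 ± 51.3 CPM in control (SD, n = 6 each). This was -0.74 ± 0.17 on the log2 scale (SE, edgeR quasi-likelihood adjusted p = 0.00140, lower in 6 of 6 libraries). Of all genes tested, 20.2% were lower at 4 Hz than control past an adjusted p of 0.05, and 19.2% were higher. Without control replicate 2, the highest control library, the value was -0.55 (edgeR adjusted p = 0.00781). With the small RNA share as a covariate, it was -0.30 and did not pass (edgeR adjusted p = 0.599). The other Txnip contrasts are given with no test: the log2 fold change was -1.67 ± 0.18 (SE) at 1 Hz and 0.06 ± 0.17 at 10 Hz against control. The value at 10 Hz turned direction with the setting: it was -0.05 on log2(TPM + 1) and from -0.02 to 0.25 without single libraries. Between frequencies it was 0.94 ± 0.18 for 4 Hz against 1 Hz, 0.80 ± 0.17 for 10 Hz against 4 Hz, and 1.74 ± 0.18 for 10 Hz against 1 Hz, which is 3.34-fold higher at 10 Hz.

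The Txnip locus also holds Gm15441, a noncoding gene on the other strand that shares 928 exon bases with it. Gm15441 averaged from 0.243 to 0.287 CPM over the 4 conditions, and it was too low to be tested. Without knowing whether counting used strand, reads of the pair cannot be told apart in the shared bases.

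**Figure D2:**
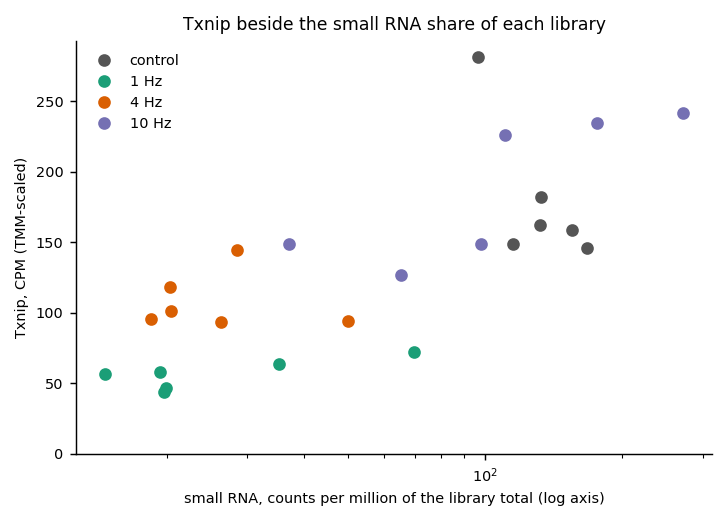
Txnip in TMM-scaled CPM (y axis) is plotted against the small RNA counts per M of each library (x axis, log scale), with a point per library colored by condition. The 1 Hz and 4 Hz libraries sit at 14.6 to 69.6 on the x axis, left of every control library (96.5 to 167), and the 10 Hz libraries spread from 37.1 to 272.

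Arrdc4 was expressed at a low level, with 8 to 47 counts per library. In CPM, the lowest, median, and highest control libraries held 2.09, 3.73, and 5.20, and the 1 Hz libraries 1.54, 2.27, and 3.81. The 4 Hz libraries held 2.57, 3.20, and 4.15, and the 10 Hz libraries 2.50, 3.46, and 3.79. All 4 conditions overlapped. Arrdc4 fell at 1 Hz against control by this test (log2 fold change -0.57 ± 0.22 SE, edgeR adjusted p = 0.0474, below every control library in 1 of 6). The call was lost when any of 10 libraries was left out, remaining only without control replicate 6 or 1 Hz replicate 4, with adjusted p up to 0.143 (edgeR, without control replicate 2). On the TPM scale, which divides by the length of the transcripts in use, the means were 2.69 ± 0.926 in control and 2.70 ± 1.04 at 1 Hz (SD, n = 6), and the difference in log2(TPM + 1) was -0.011 (limma adjusted p = 0.975). Arrdc4 was not past the test at 4 Hz (-0.18 ± 0.22 SE, 95% interval -0.60 to 0.24) or 10 Hz (-0.20 ± 0.22 SE, 95% interval -0.63 to 0.22) against control. Against 1 Hz, it was 0.37 ± 0.22 (SE) at 10 Hz, given with no test.

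Within conditions, Txnip and Arrdc4 gave no common pattern over the 6 libraries. Pearson's r of log2 CPM was 0.69 in control (exact permutation p = 0.185), -0.66 at 1 Hz (exact permutation p = 0.146), 0.12 at 4 Hz (exact permutation p = 0.863), and 0.08 at 10 Hz (exact permutation p = 0.779). Adjusted over the 4 conditions, these 2-sided p-values were 0.369, 0.369, 0.863, and 0.863. Spearman's rho was 0.60, -0.66, -0.37, and 0.37 (exact permutation p = 0.242, 0.175, 0.497, and 0.497, adjusted p from 0.483 to 0.497). None of these correlations of log2 CPM passed, and the sign differed between conditions. On log2(TPM + 1), r in control was 0.76 and passed (exact permutation p = 0.00417, adjusted p = 0.0167), whereas the other conditions did not (-0.64, -0.08, and 0.29). Without the 2 libraries farthest from the Txnip median, r of log2 CPM over the 4 left was 0.38, -0.96, -0.75, and 0.09, given with no test.

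Mlxip, which encodes the glucose sensor MondoA, rose at 1 Hz. The control libraries held 34.6, 40.8, and 45.1 CPM at the lowest, median, and highest, and the 1 Hz libraries 46.5, 47.4, and 49.3 CPM. All 6 libraries at 1 Hz were above all controls, and they were close to each other. The log2 fold change was 0.25 ± 0.09 (SE, edgeR adjusted p = 0.0284), and 18.1% of all genes were higher at 1 Hz by the same rule, with 17.3% lower. Without control replicate 3 (0.22, edgeR adjusted p = 0.0784) or control replicate 6 (0.22, edgeR adjusted p = 0.0634) the call was lost. In TPM, Mlxip averaged 8.68 in control and 9.88 at 1 Hz, with no call (limma on log2(TPM + 1), adjusted p = 0.264). At 4 Hz and 10 Hz it held 41.4 to 49.3 and 34.0 to 48.2 CPM, and neither differed from control past the test (edgeR adjusted p = 0.180 and 0.985).

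Slc2a1, which encodes the basal transporter GLUT1, had the highest level per length of the members, from 142 ± 19.1 TPM at 10 Hz to 211 ± 21.5 TPM at 1 Hz (SD, n = 6). It made up from 90.7% to 92.5% of the summed TPM of its transporter family on average. In CPM, the lowest, median, and highest libraries were 274, 370, and 453 in control, 350, 387, and 461 at 1 Hz, 280, 315, and 430 at 4 Hz, and 222, 279, and 325 at 10 Hz. At 10 Hz it fell against control by 0.46 ± 0.12 on the log2 scale (SE, edgeR adjusted p = 0.0286), with 3 of 6 libraries below all controls. At 10 Hz, 2.22% of all genes were lower than control past an adjusted p of 0.05, and 2.67% were higher. The call was lost without control replicate 2 or 4 or 10 Hz replicate 2, 4, or 5, where the log2 fold change ran from -0.45 to -0.40 (edgeR adjusted p from 0.0596 to 0.103). At 1 Hz (0.08 ± 0.12 SE) and 4 Hz (-0.16 ± 0.12 SE) it did not pass, although at 4 Hz it did on log2(TPM + 1) (-0.33, limma adjusted p = 0.0273).

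Slc2a3, which encodes the high-affinity transporter GLUT3, rose at 1 Hz from a low base of 13 to 80 counts per library. The control libraries held 3.03, 4.59, and 6.04 CPM and the 1 Hz libraries 5.45, 6.98, and 8.86 CPM at the lowest, median, and highest. The ranges overlapped, with 4 of 6 libraries at 1 Hz above every control, and the log2 fold change was 0.56 ± 0.21 (SE, edgeR adjusted p = 0.0400). The call remained without control replicate 2 or 5 or 1 Hz replicate 3 or 4 and was lost without any of the other 8 libraries (edgeR adjusted p up to 0.0944, without control replicate 1). With the small RNA share as a covariate the value was 0.77 and did not pass (edgeR adjusted p = 0.441). At 4 Hz, the libraries held 2.73 to 4.67 CPM, all below all 6 at 1 Hz, and the log2 difference was -0.90 ± 0.21 (SE, edgeR adjusted p = 0.00565). Between 4 Hz and 1 Hz, 6.56% of all genes were lower and 5.71% higher by the same rule. At 10 Hz Slc2a3 held 2.00 to 5.49 CPM, and against control it did not pass (-0.31 ± 0.22 SE).

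Slc2a4, which encodes the insulin-responsive transporter GLUT4, was also low, with 7 to 76 counts per library. It held 1.67 to 3.78 CPM in control, 1.73 to 5.18 at 1 Hz, 2.60 to 6.32 at 4 Hz, and 1.46 to 2.61 at 10 Hz. No contrast with control passed: the log2 fold changes were 0.35 ± 0.27 at 1 Hz, 0.53 ± 0.27 at 4 Hz, and -0.47 ± 0.28 at 10 Hz (SE, edgeR adjusted p = 0.331, 0.116, and 0.370). It was lower at 10 Hz than at 4 Hz by this test (-0.996 ± 0.27 SE, edgeR adjusted p = 0.00873, 5 of 6 libraries below all of 4 Hz), where 11.9% of all genes were lower and 10.9% higher. In TPM, the means were 2.30 ± 0.678 at 4 Hz and 1.43 ± 0.559 at 10 Hz (SD, n = 6), with no call (limma adjusted p = 0.208). Slc2a4 shares 242 exon bases with Ybx2 on the other strand, which averaged 0.435 CPM or less in each condition.

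Hk2, which encodes the inducible muscle hexokinase, rose at 1 Hz. The lowest, median, and highest libraries were 164, 188, and 228 CPM in control and 214, 264, and 295 CPM at 1 Hz, with 5 of 6 libraries above every control. The log2 fold change was 0.43 ± 0.10 (SE, edgeR adjusted p = 0.00140), and it was 0.09 with the small RNA share as a covariate (edgeR adjusted p = 0.898). At 4 Hz (170, 188, and 254 CPM) and 10 Hz (153, 175, and 196 CPM) it did not pass against control. It was lower at 4 Hz than at 1 Hz (-0.39 ± 0.10 SE, edgeR adjusted p = 0.00998, 5 of 6 libraries below all of 1 Hz).

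Hk1, which encodes the constitutive hexokinase, fell at 4 Hz and 10 Hz and not detectably at 1 Hz. The libraries held 219, 247, and 321 CPM in control, 233, 256, and 311 at 1 Hz, 151, 185, and 214 at 4 Hz, and 170, 189, and 218 at 10 Hz at the lowest, median, and highest. No 4 Hz or 10 Hz library reached the lowest of control or of 1 Hz. Against control the log2 fold change was -0.50 ± 0.10 at 4 Hz (SE, edgeR adjusted p = 0.000385) and -0.47 ± 0.10 at 10 Hz (SE, edgeR adjusted p = 0.00748), lower in 6 of 6 libraries each. With the small RNA share as a covariate these were -0.63 and -0.49 and passed (edgeR adjusted p = 0.0426 and 0.00714). The share at 4 Hz did not overlap that of control, so at 4 Hz this fit cannot separate it from stimulation. At 1 Hz it was -0.0014 ± 0.10 (SE), with a 95% interval of -0.20 to 0.20. Hk1 was also lower at 4 Hz than at 1 Hz (-0.50 ± 0.10 SE, edgeR adjusted p = 0.00221). These comparisons share their control or 1 Hz libraries. Hk1 shares 414 exon bases with the antisense gene Hk1os, which averaged 1.20 CPM in control and from 0.497 to 0.959 CPM under stimulation.

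The ratio of Hk1 to Hk2, which was computed after the values of both were seen, was lower under each frequency than in control. In TPM it averaged 1.94 ± 0.219 in control, 1.43 ± 0.212 at 1 Hz, 1.41 ± 0.268 at 4 Hz, and 1.51 ± 0.226 at 10 Hz (SD, n = 6). The difference in the mean log2 ratio from control was -0.45, -0.47, and -0.37 (2-sided exact permutation p = 0.00649, 0.00866, and 0.00866, each 0.00866 when adjusted over 3 comparisons that share their controls). Below all controls were 5, 4, and 5 of 6 libraries. The smallest p that 6 against 6 libraries allow is 0.00216. Since the ratio was chosen from the same libraries, its p-values restate the differences of Hk1 and Hk2 and are no separate support.

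**Figure D3:**
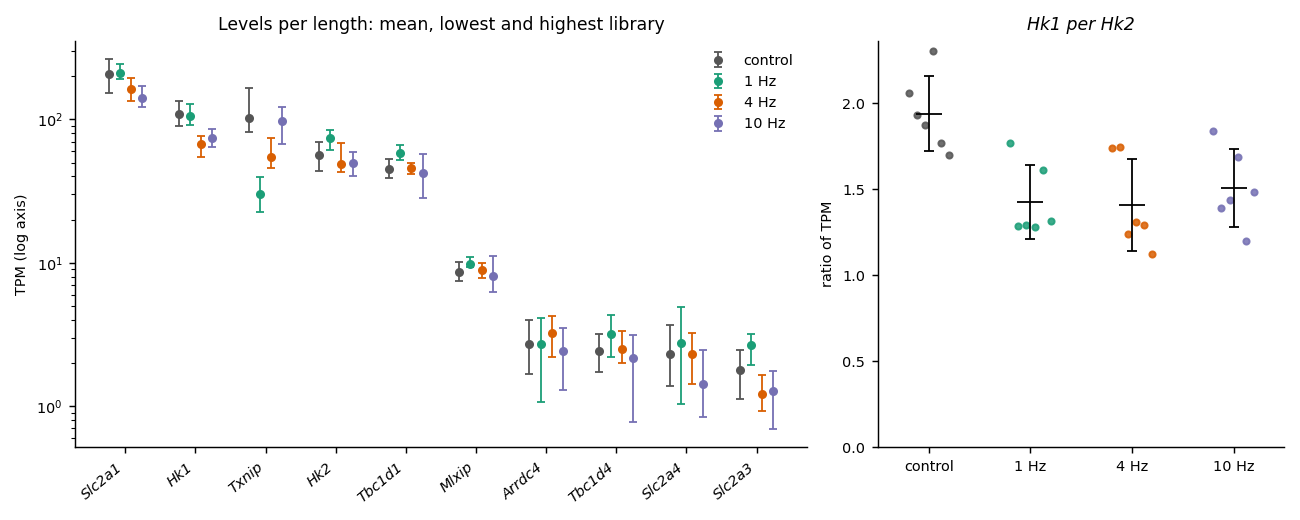
The left panel plots the TPM of each member (y axis, log scale) by condition, with the mean and with bars from the lowest to the highest library. The right panel plots the ratio of Hk1 to Hk2 TPM per library with the mean ± SD, which is 1.94 in control and 1.41 to 1.51 under stimulation.

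Tbc1d1, which encodes a Rab GTPase-activating protein on GLUT4 vesicles that contraction-activated kinases phosphorylate, rose at 1 Hz. Control libraries held 114, 116, and 130 CPM and 1 Hz libraries 146, 160, and 168 CPM at the lowest, median, and highest. All 6 libraries at 1 Hz were above every control, and the log2 fold change was 0.40 ± 0.09 (SE, edgeR adjusted p = 0.000812). At 4 Hz, the libraries held 124, 137, and 149 CPM, and the difference from control did not pass (0.18 ± 0.09 SE, edgeR adjusted p = 0.0879). At 10 Hz they spread from 88.1 to 138 CPM, with a log2 fold change of -0.08 ± 0.09 (SE) against control. Tbc1d1 was lower at 10 Hz than at 4 Hz (-0.26 ± 0.09 SE, edgeR adjusted p = 0.0285), a call lost without 4 Hz replicate 6 (-0.24) or 10 Hz replicate 1 (-0.23) or 2 (-0.20) (edgeR adjusted p = 0.0578, 0.0712, and 0.0878). With the small RNA share as a covariate, the rise at 1 Hz was 0.10 and did not pass (edgeR adjusted p = 0.849).

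Tbc1d4, which encodes the insulin-regulated relative of TBC1D1 also known as AS160, held 5.51 to 10.5 CPM in control, 8.88 to 13.9 at 1 Hz, 6.05 to 11.8 at 4 Hz, and 3.63 to 8.13 at 10 Hz. None of its tested contrasts passed: the log2 fold change against control was 0.39 ± 0.19 at 1 Hz, 0.03 ± 0.19 at 4 Hz, and -0.40 ± 0.20 at 10 Hz (SE, edgeR adjusted p = 0.112, 0.916, and 0.246). In TPM its means lay between 2.15 and 3.21, far below Tbc1d1 at 42.3 to 58.3 TPM.

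**Figure D4:**
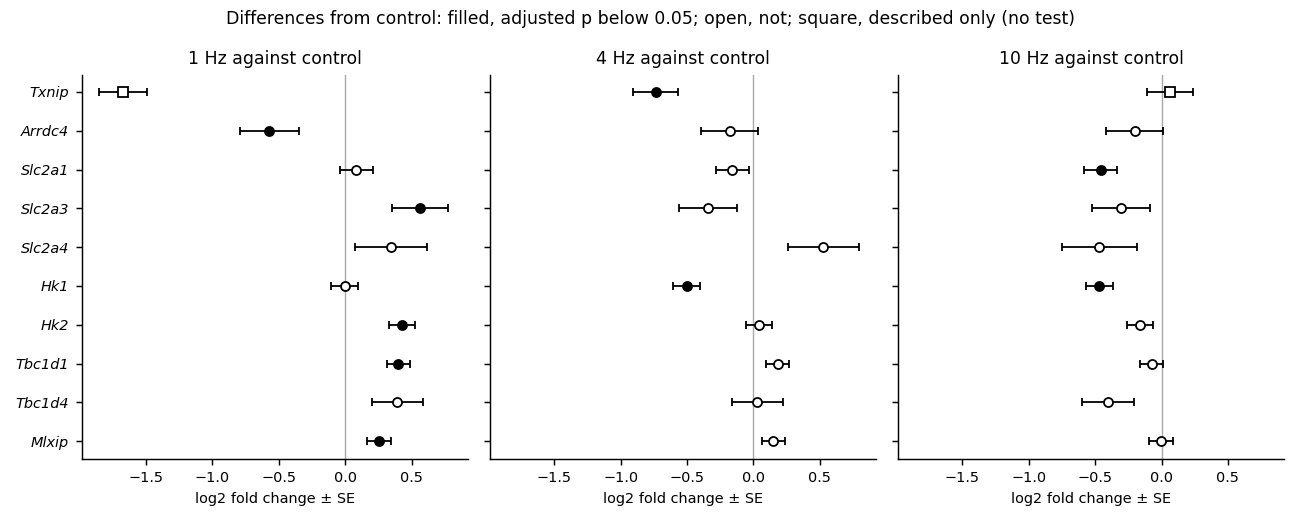
Log2 fold changes ± SE (x axis) of the 10 members (y axis) are shown for 1 Hz, 4 Hz, and 10 Hz against the same 6 control libraries. Filled circles passed an adjusted p of 0.05, open circles did not, and squares were not tested, with Txnip at -1.67 at 1 Hz and -0.74 at 4 Hz.

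Counted over the members, 4 of 9 tested rose and 1 of 9 fell at 1 Hz against control, 0 of 10 rose and 2 of 10 fell at 4 Hz, and 0 of 9 rose and 2 of 9 fell at 10 Hz. Of all genes, 18.1% rose and 17.3% fell at 1 Hz, 19.2% and 20.2% at 4 Hz, and 2.67% and 2.22% at 10 Hz. With a further limit of 0.5 on the absolute log2 fold change, 2 members were counted at 1 Hz (Arrdc4 and Slc2a3), 1 at 4 Hz (Txnip), and 0 at 10 Hz, beside 18.3%, 20.1%, and 1.86% of all genes. At 10 Hz, where edgeR counted 0, limma on log2(TPM + 1) counted 2. Hk1 at 4 Hz stood just under that limit and was not counted. By the same rule, 1 of 9 was counted for 4 Hz against 1 Hz (Slc2a3) and 1 of 9 for 10 Hz against 4 Hz (Slc2a4), beside 3.00% and 11.0% of all genes. The median log2 fold change of the 10 members was 0.30, -0.06, and -0.26 at 1, 4, and 10 Hz against control, beside -0.0072, -0.014, and -0.0064 over all genes.

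For 10 Hz against 1 Hz, the contrast that chose Txnip, values are given with no test. Txnip was higher at 10 Hz in 6 of 6 libraries, and 8 of the other 9 members had a negative log2 fold change. These were -0.54 for Slc2a1, -0.87 for Slc2a3, -0.81 for Slc2a4, -0.47 for Hk1, -0.59 for Hk2, -0.48 for Tbc1d1, -0.80 for Tbc1d4, and -0.26 for Mlxip. Slc2a1, Hk1, Hk2, Tbc1d1, and Tbc1d4 had every 10 Hz library below every 1 Hz library. The share of all genes separated in this way is not given, so the separation only describes these members. The median over the members was -0.51, beside 0.01 over all genes. Of all genes, 17.9% passed both limits. Past an adjusted p of 0.05 alone, 17.7% were higher and 18.5% were lower. The members are given here by sign and were not held to these limits, so the shares are not a like measure. Arrdc4 was 0.37 on the CPM scale, whereas its log2(TPM + 1) difference was -0.10.

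Per length, the members fell into levels that differed widely. In control, Slc2a1 averaged 209 ± 42.9 TPM, Hk1 110 ± 19.9, Txnip 102 ± 32.2, Hk2 56.8 ± 8.72, Tbc1d1 45.1 ± 5.17, and Mlxip 8.68 ± 0.936 (SD, n = 6). Arrdc4 (2.69 TPM), Tbc1d4 (2.41), Slc2a4 (2.31), and Slc2a3 (1.78) followed. Hk1 and Txnip overlapped over the control libraries, as did Hk2 and Tbc1d1 and the 4 lowest members. At 1 Hz, Txnip averaged 30.2 ± 6.32 TPM and lay below Hk2 (74.2 ± 7.99) and Tbc1d1 (58.3 ± 4.82), with no shared range. At 10 Hz it was again above them, at 98.1 ± 26.0 TPM beside 49.8 ± 7.44 and 42.3 ± 11.2 TPM.

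The genes most like Txnip were ranked by Pearson's r of log2 CPM over all 24 libraries, among 9065 genes with a mean of at least 10 CPM, as a description. The libraries share their condition and library composition, so r holds both. The 5 highest were Ahsa1, a cochaperone of HSP90 (0.92), the homeobox gene Hoxc9 (0.92), the zinc finger gene Zfp7 (0.92), Cdk5rap1, which modifies mitochondrial tRNA (0.91), and the linker histone gene H1f0 (0.90). The 3 lowest were Sec31a, a coat protein of vesicles leaving the endoplasmic reticulum (-0.94), the metalloproteinase gene Mmp19 (-0.93), and the activity-regulated gene Arc (-0.92). Arc averaged 35.4 CPM in control, 176 at 1 Hz, 111 at 4 Hz, and 48.2 at 10 Hz, highest where Txnip was lowest. With the condition means removed, r was between 0.50 and 0.75 for the 5 highest and between -0.71 and -0.62 for the 3 lowest. These genes were picked by r over the same libraries, so values far from 0 are partly built in and are no separate support.

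Among the members, Tbc1d1 ran most against Txnip, with r = -0.90, rank 9049 of 9065. Hk2 had r = -0.78 and Mlxip -0.71, Slc2a1 -0.38 and Hk1 -0.21, and the members under 10 CPM were not ranked. Within conditions, Tbc1d1 and Txnip had a negative r in 4 of 4, from -0.81 to -0.54 over 6 libraries each (n = 6, lowest 2-sided exact permutation p = 0.0778), and none passed after adjustment over 36 relations (0.493 at the lowest). The relation was weaker in TPM, where r over all 24 libraries was -0.68. Within conditions, r in TPM was 0.12, 0.04, 0.21, and -0.84 in control, 1 Hz, 4 Hz, and 10 Hz. The lowest p of all 36 relations of Txnip with another member was that of Mlxip at 10 Hz (n = 6, r = -0.99, 2-sided exact permutation p = 0.00694, adjusted p = 0.250). Mlxip had r = 0.42 in control, 0.26 at 1 Hz, and -0.62 at 4 Hz, and in TPM its r at 10 Hz was -0.83.

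Of 75 further genes in lists of the same pathways, 59 could be tested. Against control, 13 rose and 8 fell at 1 Hz, 11 rose and 10 fell at 4 Hz, and 1 rose and 3 fell at 10 Hz. Of all genes, 18.1% rose and 17.3% fell at 1 Hz, 19.2% and 20.2% at 4 Hz, and 2.67% and 2.22% at 10 Hz. With the limit on the fold change, 4, 6, and 0 of the 59 were counted, beside 18.3%, 20.1%, and 1.86% of all genes. The median log2 fold change of the 59 was 0.07, -0.10, and -0.09, beside -0.0072, -0.014, and -0.0064 over all genes. At 10 Hz the 4 past the adjusted p were Txnrd1 (0.24), Mxi1 (-0.25), Pgm1 (-0.28), and Irs1 (-0.46), of which the first 3 are named after their values were seen. With the small RNA share as a covariate, 0 and 1 were counted at 1 Hz and 4 Hz. The share of all genes counted in that fit is not given, so the drop cannot be read as particular to these genes. The small RNA share of control did not overlap that of 1 Hz or 4 Hz, so that fit cannot separate it from stimulation.

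Of 7 tested alpha-arrestin and thioredoxin genes, 1 rose and 2 fell at 1 Hz, and 2 rose and 2 fell at 4 Hz, with a median log2 fold change of -0.17 and -0.26. Over all genes 18.1% rose and 17.3% fell at 1 Hz, and 19.2% and 20.2% at 4 Hz. Arrdc3, an alpha-arrestin that acts on beta-adrenergic receptors, had its lowest mean at 1 Hz, as Txnip did. It held 38.1 to 100.1 CPM in control, 19.5 to 26.4 at 1 Hz, 19.2 to 32.9 at 4 Hz, and 31.8 to 59.8 at 10 Hz. Every library at 1 Hz and 4 Hz was below every control, with log2 fold changes of -1.45 ± 0.20 (SE, edgeR adjusted p = 1.2e-05) and -1.12 ± 0.20 (SE, edgeR adjusted p = 9.4e-05). At 10 Hz it was -0.48 ± 0.19 (SE, edgeR adjusted p = 0.150), and it was higher at 10 Hz than at 4 Hz (0.64 ± 0.20 SE, edgeR adjusted p = 0.0200). Arrdc2 fell by 0.49 ± 0.17 at 1 Hz (SE, edgeR adjusted p = 0.0282) and by 0.73 ± 0.17 at 4 Hz (SE, edgeR adjusted p = 0.00160). With the small RNA share as a covariate, Arrdc3 was not past both limits at 1 Hz.

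Of 15 tested genes that carry the insulin signal to GLUT4, 6 rose and 3 fell at 1 Hz, and 3 rose and 4 fell at 4 Hz, with a median log2 fold change of 0.07 and -0.06. The shares of all genes that rose and fell were 18.1% and 17.3% at 1 Hz and 19.2% and 20.2% at 4 Hz. Irs2, an insulin receptor substrate, stood apart at 4 Hz, with 13.2 to 27.2 CPM beside 40.1 to 64.9 in control, 31.6 to 48.0 at 1 Hz, and 28.7 to 41.5 at 10 Hz. It fell at 4 Hz by 1.40 ± 0.15 on the log2 scale (SE, edgeR adjusted p = 2.9e-07), and every 4 Hz library was below every library of the other conditions. It was lower than at 1 Hz (-1.06 ± 0.15 SE, edgeR adjusted p = 7.3e-05), and 10 Hz was higher than 4 Hz (0.98 ± 0.15 SE, edgeR adjusted p = 0.000122). Its relative Irs1 fell at every frequency, by 0.60 at 1 Hz, 0.72 at 4 Hz, and 0.46 at 10 Hz (edgeR adjusted p = 0.000173, 1.4e-05, and 0.0138), with 6 of 6 libraries below every control each time. Pik3ca, a catalytic subunit of phosphoinositide kinase that was named after its values were seen, fell by 0.51 ± 0.10 at 4 Hz (SE, edgeR adjusted p = 0.000252). Igf1r, the receptor of the IGF-1 in the medium, rose by 0.79 ± 0.12 at 1 Hz (SE, edgeR adjusted p = 3.7e-05) and by 0.44 ± 0.12 at 4 Hz (SE, edgeR adjusted p = 0.00564). With the small RNA share as a covariate, neither Irs1 nor Igf1r was past both limits at 1 Hz.

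Of 14 tested genes of GLUT4 vesicle traffic, 3 rose and 0 fell at 1 Hz, and 3 rose and 1 fell at 4 Hz, with a median log2 fold change of 0.04 and -0.01. Beside these, 18.1% of all genes rose and 17.3% fell at 1 Hz, and 19.2% rose and 20.2% fell at 4 Hz. Sort1, the sorting receptor of GLUT4 vesicles, held 25.7 to 34.5 CPM in control, 48.4 to 60.5 at 1 Hz, 42.0 to 52.3 at 4 Hz, and 25.9 to 38.0 at 10 Hz. It rose by 0.86 ± 0.10 at 1 Hz (SE, edgeR adjusted p = 1.2e-06) and by 0.64 ± 0.10 at 4 Hz (SE, edgeR adjusted p = 1.5e-05), with no overlap with control. At 10 Hz its log2 fold change was -0.0059 ± 0.10 (SE, edgeR adjusted p = 0.983). With the small RNA share as a covariate, Sort1 was not past both limits at 1 Hz. Of 7 tested partners in the Mondo and MLX network, 2 rose and 0 fell at 1 Hz and 1 rose and 0 fell at 4 Hz, and of 9 AMPK subunits and kinases 0 rose and 3 fell at 1 Hz and 1 rose and 2 fell at 4 Hz. Of 5 tested genes of glucose phosphorylation 1 rose and 0 fell at 1 Hz and 1 rose and 1 fell at 4 Hz, and of 2 other hexose transporters 0 rose and 0 fell at either. The same shares of all genes stand beside these counts. None of these 4 lists had a gene past both limits against control.

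**Figure D5:**
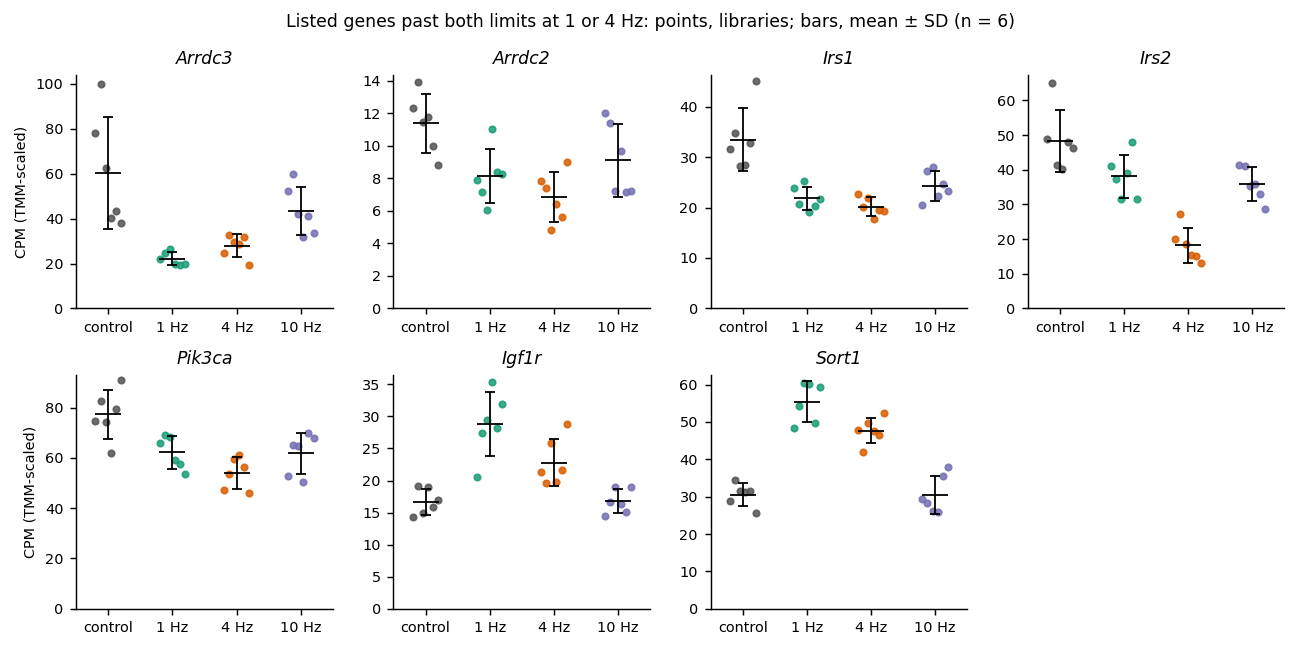
Each panel plots 1 listed pathway gene in TMM-scaled CPM (y axis, from 0) by condition, with a point per library and the mean ± SD of 6 libraries. Irs2 is lowest at 4 Hz (13.2 to 27.2 CPM), Arrdc3 is low at both 1 Hz and 4 Hz, and Sort1 is high at both.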

How the data were processed

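RNA was measured in 24 tissues, 6 per condition, with groups and replicate numbers taken from the sample titles. The authors aligned reads with STAR and quantified genes with Salmon against GRCm39 in a standard pipeline, and deposited estimated counts (expected counts, not normalized, 6.62% to 10.6% not whole per library) and TPM, each for 56941 genes. The Ensembl release and the use of strand in counting are not given in the sources used here. Rounding these counts to integers for the test left Arrdc4 and Slc2a3 as they were, since their counts were whole, and could move other low genes slightly. Genes were filtered with filterByExpr, which left 13318 genes with 99.8% of counts, scaled by TMM, and tested by the quasi-likelihood method (edgeR 4.0.16, limma 3.58.1, R 4.3.3) in 1 fit of 24 libraries with condition as the only factor. P-values were adjusted by the Benjamini-Hochberg method across every tested gene. Genes past an adjusted p of 0.05 are said to rise or fall, and "counted" adds an absolute log2 fold change above 0.5, the limits of the study. CPM use TMM-scaled library sizes, log2 CPM a prior count of 2, and SDs are between libraries, whose total of 4.09 to 15.2 M counts sets the counting error. The fold changes on log2(TPM + 1) understate the change of low genes.

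The members, the pathway lists, and the tests were chosen with earlier results of these data known. Named genes are the 10 members, from each pathway list at most the 3 largest changes past both limits against control, and the 5 genes most and 3 least like Txnip, with names of predicted genes passed over. Pik3ca, the other listed gene past both limits, and 3 genes at 10 Hz were named outside this rule. Each result was also computed with DESeq2 1.42.0 or its size factors, with total count scaling, without the low-count filter, and with limma on log2 TPM (pseudocount 1 with or without a minimum mean TPM of 1, or pseudocount 0.1). Further alternatives were a fit of only the 12 libraries compared, a replicate block, the log2 small RNA share as a covariate, calls by adjusted p alone, and the omission of single libraries. Chosen after the data were seen were the ratio of Hk1 to Hk2 with its alternatives, the correlation of Txnip with members other than Arrdc4, and the paired promoter motif. The scripts were tested on simulated data. No 2 libraries of a condition were alike within sampling noise (60 pairs). Gene positions and promoters came from the genome and GENCODE M39 annotation of GRCm39, which may not be the release the authors used.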

Additional observations from a re-analysis of the deposited data

Results flagged for a closer look

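Of 40 sets of 6 libraries (10 members in 4 conditions), 2 held a library far from the others, and by chance about 1 in 20 would. Txnip in control replicate 2 was at 281 CPM, and the next control library was at 182 CPM. Hk2 in 4 Hz replicate 6 was at 254 CPM, and the next 4 Hz library was at 200 CPM.

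The effect of stimulation over control differed between frequencies past the test for 5 members, since the contrast between the frequencies is the difference of the effects over the shared controls. Between 4 Hz and 1 Hz these were 3 of 9 tested, Slc2a3 (log2 fold change -0.90), Hk1 (-0.50), and Hk2 (-0.39). Beside them, 6.56% of all genes were lower and 5.71% higher. Between 10 Hz and 4 Hz these were 2 of 9 tested, Slc2a4 (-0.996) and Tbc1d1 (-0.26), and Slc2a4 did not pass in TPM. Here 11.9% of all genes were lower and 10.9% higher, so this count is near the share over all genes.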

How the results depend on the processing

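The counts of members past both limits were small and moved with most settings. At 1 Hz against control the count of 2 became 1 with total count scaling, DESeq2, or only the 12 libraries compared, 0 with no filter, any of the 3 limma fits on TPM, the small RNA covariate, or the replicate block, and 5 by adjusted p alone, with 0 to 2 when single libraries were left out. At 4 Hz against control the count of 1 became 2 with total count scaling, the 3 TPM fits, and adjusted p alone, with 1 to 2 without single libraries. At 10 Hz against control 0 became 1 with total count scaling and 2 in the 3 TPM fits and by adjusted p alone, with 0 to 2 without single libraries. For 4 Hz against 1 Hz 1 became 2 with total count scaling and 3 in the 3 TPM fits and by adjusted p alone, with 1 to 2 without single libraries, and for 10 Hz against 4 Hz 1 became 0 in the 3 TPM fits and with the covariate and 2 by adjusted p alone. The pathway count of 4 at 1 Hz became 8 with no filter, 0 with the covariate, and 21 by adjusted p alone, with 4 to 7 without single libraries (7 without control replicate 4). At 4 Hz 6 became 1 with the covariate and 21 by adjusted p alone, and at 10 Hz 0 became 1 on log2(TPM + 0.1) and 4 by adjusted p alone, with 0 to 1 without single libraries. Txnip at 4 Hz against control became -0.30 with the covariate (edgeR adjusted p = 0.599), and over the other settings it stayed past the threshold. For Txnip and Arrdc4, r in control became 0.76 on log2(TPM + 1) (exact permutation, adjusted p = 0.0167), and r at 4 Hz became -0.75 without the 2 farthest libraries and -0.082 on log2(TPM + 1). The cause of these moves was not tested.

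Among tested values, directions turned only where the reported value was not past the test. Of untested values, Txnip at 10 Hz against control became -0.047 in the 3 TPM fits and ran from -0.020 to 0.25 without single libraries, and Arrdc4 for 10 Hz against 1 Hz became -0.10, -0.13, and -0.10 in these fits. With the small RNA covariate the log2 fold change became -0.19 for Slc2a1 and -0.29 for Slc2a4 at 1 Hz against control, and at 4 Hz against control it became -0.057 for Slc2a4, -0.29 for Hk2, -0.11 for Tbc1d1, -0.17 for Tbc1d4, and -0.00064 for Mlxip. For 10 Hz against 4 Hz it became 0.0072 for Arrdc4, -0.15 for Slc2a3, and 0.080 for Hk2. On log2(TPM + 1), with and without the filter, and on log2(TPM + 0.1), Arrdc4 at 4 Hz against control became 0.22, 0.22, and 0.30, Hk2 there -0.21, -0.21, and -0.21, Slc2a4 for 4 Hz against 1 Hz -0.086, -0.086, and -0.069, and Hk2 for 10 Hz against 4 Hz 0.025 in each. With total count scaling, Hk2 and Tbc1d4 at 4 Hz against control became -0.060 and -0.067, and Arrdc4 for 10 Hz against 4 Hz 0.035. With no filter, Hk1 at 1 Hz against control became 0.030 and Mlxip at 10 Hz against control 0.013, and with the replicate block Hk1 at 1 Hz became 0.0017. Leaving out single libraries gave -0.055 to 0.067 for Hk1 at 1 Hz, -0.033 to 0.11 for Hk2 and -0.080 to 0.11 for Tbc1d4 at 4 Hz, and -0.063 to 0.035 for Mlxip at 10 Hz, all against control. For 10 Hz against 4 Hz it gave -0.095 to 0.042 for Arrdc4, -0.14 to 0.15 for Slc2a3, and -0.026 to 0.068 for Hk1.

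Of 36 pairs of same-numbered libraries, 10 had a correlation over 0.1 (from -0.18 to 0.36, median 0.02), and the numbers were not taken as a pairing. Libraries of unlike number were not compared, so a shared deviation of same-numbered libraries was not excluded. Over the settings that keep all libraries, 28 tested values of single members turned direction, 36 fell short of a threshold the reported value passed, 7 newly passed, and 389 kept their direction and side. Low counts limit Arrdc4, Slc2a3, and Slc2a4 (7 to 80 counts per library).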
